A study of Glycine max with 6 samples.

Results

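The 150 most abundant stable transcripts of soybean hairy roots are described here, chosen from 56044 gene models. A gene was called stable where its log2(FPKM + 1) in the GmPHD6 overexpression roots and in the GmPHD6 RNAi roots each lay within about 1.5-fold of the control roots, a limit called the window here. FPKM is fragments per kilobase of transcript scaled to sequencing depth. The gene also needed an OK flag in the 3 columns of the table and a position outside 2621543 to 6068823 on chromosome 13. Of 55761 genes that entered this rule, 45146 were stable, and the 150 with the highest control FPKM are the members. Level and closeness to control therefore chose them, and both are given as description with no test.

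The roots came from soybean (Glycine max, strain KF1) seedlings injected at 1 week of age, above the soil, with Agrobacterium rhizogenes strain K599. This bacterium transfers genes that make plant cells grow out as transformed roots on an untransformed shoot. Libraries were sequenced in 3 groups of 2: roots with an overexpression construct of GmPHD6, roots with an RNA interference (RNAi) construct against it, and control roots labelled K599 with wild type genotype. Transformed roots of 2 to 10 cm were collected in all groups. For every library the labels give growth at 28 °C, 16 h of light and 8 h of dark, and an injection height of 2 cm. The sources used here name neither the promoter of each construct, nor the number of roots per library, nor whether paired libraries stem from different plants.

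Each group stands in the table as 1 pooled FPKM per gene with a lower and an upper bound set by the authors. There is therefore no replicate error and no test between groups, and a value is printed with its bounds where a comparison turns on them. The column headed G6 was read as the overexpression group, because the other columns carry the names RNAi and K599. GmPHD6 was not matched to an ID here, so the targeted gene's own level was not analysed.

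The most abundant messages of a plant cell usually come from a small set of genes that every cell uses, such as those for ribosomal proteins, translation factors, cytoskeleton and ubiquitin, with tissue genes for cell wall, defence and transport among them. Genes whose level stays even between conditions serve as internal references when other transcripts are measured. Soybean descends from an ancient polyploid, and many of its genes still have a duplicated partner, a homeolog, on another chromosome. None of the table's gene IDs was paired with a name, a function or a sequence by the sources used here, so members are named by ID alone, no role is given to them, the labelled tissue could not be checked against marker genes, and homeologous pairs were not analysed here.

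Members spanned 17.6-fold in control, from 208 FPKM to 3658 FPKM with a median of 300.03 FPKM. Their level ran from 173 FPKM to 5237 FPKM with overexpression, with a median of 320.4 FPKM, and from 160.5 FPKM to 3755 FPKM with RNAi, with a median of 317 FPKM. In whole roots, fewer cells of a type and less RNA per cell cannot be told apart behind a level. At 1000 FPKM or more stood 16 members with overexpression, 16 with RNAi and 11 in control. The 31 highest members held at least as much control FPKM as all the others together.

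Glyma.10G206900, on chromosome 10 from 43855262 to 43858609 with a span of 3347 bases, was the highest member in each of the 3 columns. It read 5237 FPKM with overexpression (bounds 5197 to 5278), 3755 FPKM with RNAi (3721 to 3789) and 3658 FPKM in control (3627 to 3689). Its overexpression value thus stood apart from the other columns, which lay close together, and its log2 difference of 0.52 was the second highest of all members for overexpression against control. This gene alone made up 0.628% of the overexpression column, 0.498% of the RNAi column and 0.540% of the control column.

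Glyma.17G230500, on chromosome 17 from 38559030 to 38560317, came second in control. It read 2773 FPKM with overexpression (2732 to 2814), 2817 FPKM with RNAi (2777 to 2857) and 3019 FPKM in control (2980 to 3058). Both constructs were slightly below control, at log2 differences of -0.12 and -0.10, and the construct bounds overlapped each other but not those of control.

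Glyma.07G039100 and Glyma.07G038700 followed, near each other on chromosome 7. Glyma.07G039100 (3222524 to 3223373) read 2555 FPKM with overexpression, 1662 FPKM with RNAi and 2350 FPKM in control. Glyma.07G038700 (3193172 to 3194291) read 2337 FPKM with overexpression, 1509 FPKM with RNAi and 2119 FPKM in control. In both genes the RNAi column was the low one, at log2 differences of -0.50 and -0.49 from control, near the edge of what the rule allowed.

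Glyma.10G214500 (chromosome 10, 44656909 to 44657834) had 2087 FPKM with overexpression, 2146 FPKM with RNAi and 1788 FPKM in control. Glyma.03G185900 (chromosome 3, 39767327 to 39768649) had 2492 FPKM with overexpression, 2634 FPKM with RNAi and 1775 FPKM in control. Both genes were above control in both construct columns, and the bounds of control lay apart from those of each construct.

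Glyma.14G061500 (chromosome 14, 4978298 to 4980309) was the most even of the 10 highest across the columns, at 1482 FPKM with overexpression, 1514 FPKM with RNAi and 1604 FPKM in control. Glyma.01G036300 (chromosome 1, 3813756 to 3814433) had 1124 FPKM with overexpression, 1462 FPKM with RNAi and 1372 FPKM in control, with overexpression low. Glyma.20G141600 (chromosome 20, 38036724 to 38039025) had 1564 FPKM with overexpression, 1538 FPKM with RNAi and 1327 FPKM in control, with both constructs above. Glyma.17G030200 (chromosome 17, 2215795 to 2216870), at rank 10, had 1355 FPKM with overexpression, 813 FPKM with RNAi and 1110 FPKM in control. It was the only one of the 10 highest whose 2 constructs lay more than 0.7 apart on the log2 scale, at 0.74.

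**Figure D1:**
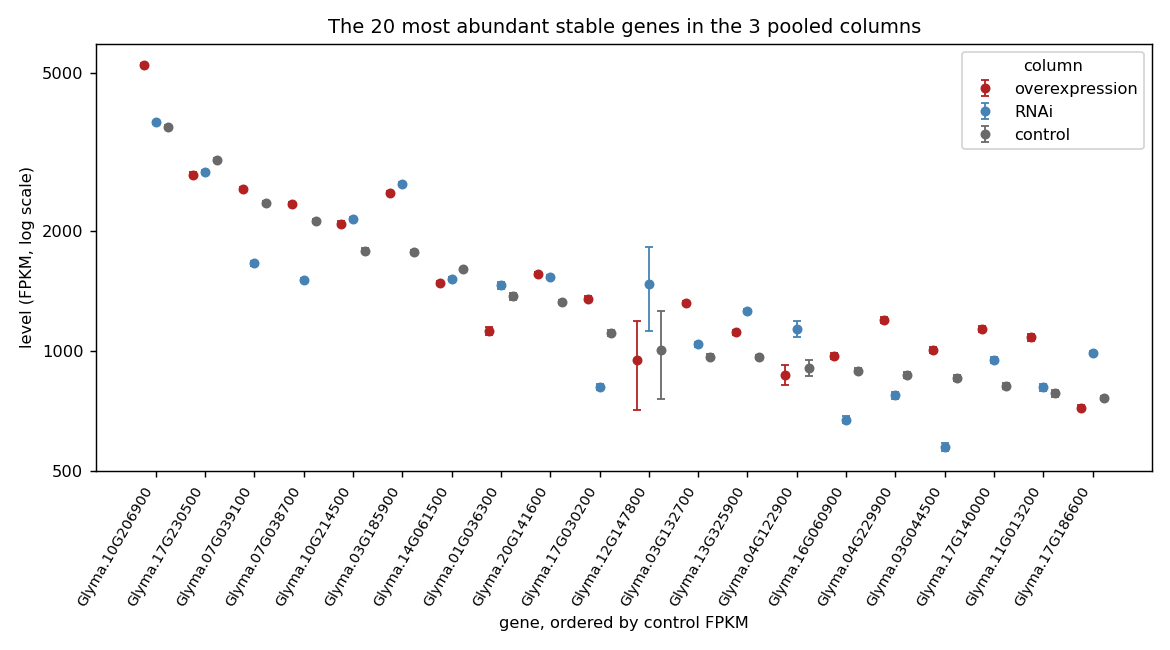
Level of the 20 highest members (y axis, FPKM on a log scale) in the overexpression, RNAi and control columns, with the authors' bounds as bars. Glyma.10G206900 stands above the rest at 5237, 3755 and 3658 FPKM, and the bounds are narrow except for Glyma.12G147800, whose control bounds run from 758 to 1260 FPKM.

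At the lower end of the rule, Glyma.17G032200 read 230 FPKM with overexpression, 215 FPKM with RNAi and 212 FPKM in control. Glyma.04G165500 read 237 FPKM with overexpression, 268 FPKM with RNAi and 211 FPKM in control, and Glyma.15G195500, the last member, read 278 FPKM with overexpression, 257 FPKM with RNAi and 208 FPKM in control. The next 3 stable genes were Glyma.12G093100 at 207 FPKM, Glyma.18G022500 at 206 FPKM and Glyma.01G207700 at 206 FPKM in control. No gap in level separated the last member from these genes.

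At the edge of the window, the members nearest to it were Glyma.14G201700, at a log2 difference of 0.583 for overexpression, and Glyma.19G263100, at -0.580 for RNAi. The nearest genes of the members' level left outside were Glyma.15G144900, at 0.58502 for RNAi, and Glyma.06G302600, at 0.591 for overexpression. Within 0.05 of the edge lay 12 members inside and 14 genes of that level outside.

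The FPKM of all members summed to 79386 in overexpression, 77573 in RNAi and 72158 in control. That was 9.52% of the overexpression column, 10.3% of the RNAi column and 10.7% of the control column. The members' sum was 1.10 times control with overexpression and 1.075 times with RNAi, while the whole column was 1.231 times control with overexpression and 1.114 times with RNAi. The share was lowest with overexpression. The chromosome 13 stretch left out by the rule is part of these columns and took 19.4% of the overexpression column, 2.94% of the RNAi column and 2.29% of the control column. With that stretch taken out of the columns, the members made up 11.8% with overexpression, 10.6% with RNAi and 10.9% in control, and the overexpression share was the highest.

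**Figure D2:**
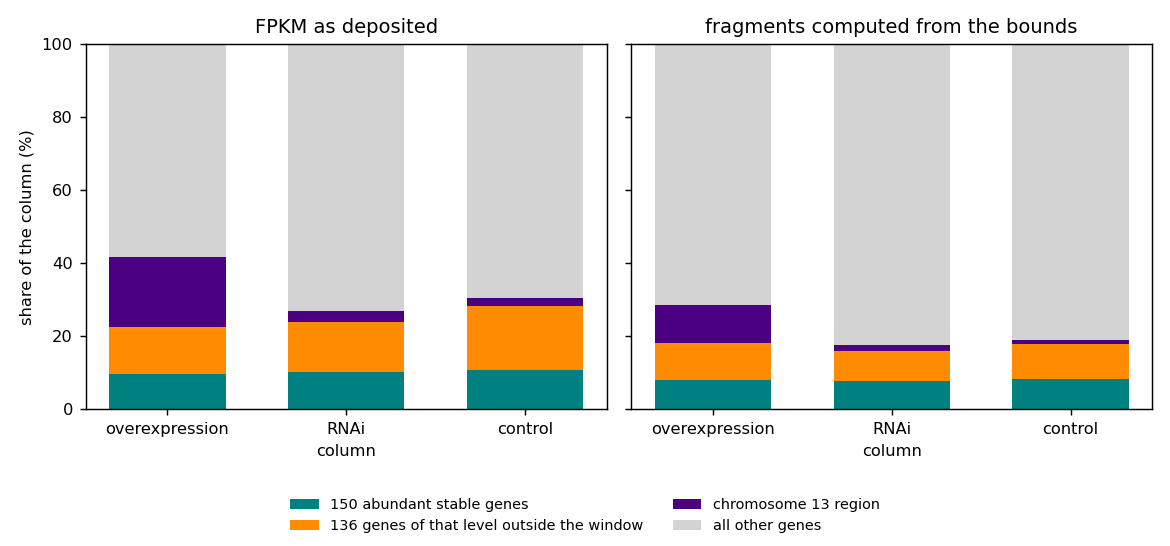
Share of each column (y axis, %) taken by the 150 members, the 136 genes of the same control level outside the window, the chromosome 13 region and all other genes, for FPKM (left) and for fragments computed from the bounds (right). The members hold 9.52%, 10.3% and 10.7% of FPKM in overexpression, RNAi and control, and the chromosome 13 region is wide in overexpression alone, at 19.4% against 2.94% and 2.29%.

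A second view of the share does not divide by transcript length. A fragment number follows from each value if its upper bound is taken to lie 2 counting standard deviations above it. On this reading the members had 1171214 fragments with overexpression, 1195720 with RNAi and 1274792 in control. That was 7.98% of all computed fragments with overexpression, 7.78% with RNAi and 8.37% in control. For members ranked on FPKM, these shares were below the FPKM shares in all 3 columns. Ranked on computed fragments instead, the fragment shares were above the FPKM shares in all 3 columns. The median member rested on 4551 computed fragments with overexpression, 4977 with RNAi and 5554 in control, and its upper bound stood above its value by 2.96% with overexpression, 2.84% with RNAi and 2.68% in control. What error the authors' bounds cover is not stated in the labels, and whether it includes the spread between plants was not tested.

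The highest members carried much of this sum. The 10 highest took 2.76% of the overexpression column, 2.63% of the RNAi column and 2.97% of the control column in FPKM. The 50 highest took 6.10% of the overexpression column, 6.37% of the RNAi column and 6.64% of the control column. The remaining 100 took 3.425% of overexpression, 3.92% of RNAi and 4.02% of control.

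Abundance and stability did not coincide at the top of the table. Of 286 genes that entered the rule at the members' control level or above, 150 were within the window and 136 were not, so 52.4% were stable, against 81.0% of all genes that entered the rule and 69.5% of the 33229 genes with at least 1 FPKM in a column. The 81.0% and the 69.5% include genes below 10 FPKM, whose shares depend on the pseudocount. From 10 FPKM upward the stable share fell with level. It was 69.2% of 10918 genes at 10 to 100 FPKM, 62.3% of 613 genes at 100 to 200 FPKM and 54.5% of 231 genes at 200 to 500 FPKM. It was 48.1% of 52 genes at 500 to 1000 FPKM and 42.3% of 26 genes at 1000 FPKM or more. Below 1 FPKM the share was 93.8% with log2(FPKM + 1) and 63.6% with log2(FPKM + 0.1). At 1 to 10 FPKM it was 72.4% and 60.5%, so the share of low genes depended on the pseudocount. With log2(FPKM + 0.1) the share rose from 60.5% at 1 to 10 FPKM to 67.5% at 10 to 100 FPKM. From 10 FPKM upward both pseudocounts gave shares within 2 percentage points of each other. Control levels both order the genes and enter the differences here.

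**Figure D3:**
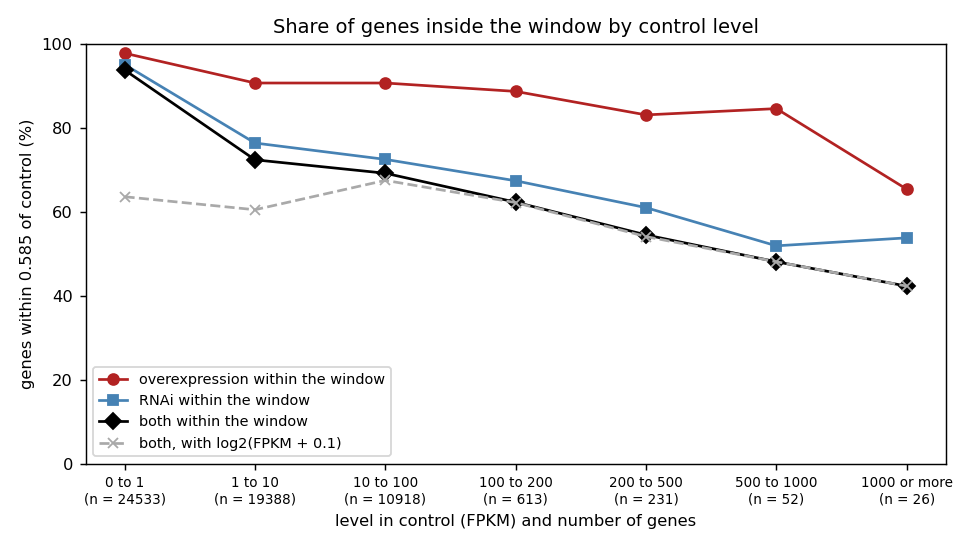
Share of genes (y axis, %) whose level lay within the window around control, by level in control (x axis, FPKM, with the number of genes), for overexpression, for RNAi and for both together with 2 pseudocounts. The share inside the window for both constructs goes down from 69.2% at 10 to 100 FPKM to 42.3% at 1000 FPKM or more.

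The 136 genes of the members' level that failed the window did so mostly through the RNAi column. With RNAi alone 85 were outside, with overexpression alone 20, and with both 31. This was not particular to genes of that level, as fewer genes were within the window for RNAi in each range of control level. At 10 to 100 FPKM 72.5% of genes were within it for RNAi and 90.7% for overexpression. At 1000 FPKM or more the shares were 53.8% and 65.4%. With RNAi 51 were above the window and 65 below it, and with overexpression 31 were above and 20 below. Another 18 genes of this level lay in the chromosome 13 stretch, none of them inside the window. These 136 genes took 12.9% of the overexpression column, 13.7% of the RNAi column and 17.6% of the control column, more than the members in every column. One of them, Glyma.04G231200, whose bounds reach 0, made up 2.66% of the RNAi column and 3.5% of the control column. With it taken out of the set and of the columns, the others took 12.9% of overexpression, 11.3% of RNAi and 14.6% of control, and the members 9.52% of overexpression, 10.6% of RNAi and 11.05% of control. In computed fragments the 136 genes took 10.1% with overexpression, 8.23% with RNAi and 9.49% in control, so that overexpression rather than control had the highest share.

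Of these genes 6 were above the highest member in control, and the 5 highest are described. Glyma.04G231200, with a span of 102 bases, read 20072 FPKM with RNAi and 23697 FPKM in control with lower bounds of 0, and was listed at 0 with overexpression. Glyma.10G207000, with a span of 150 bases, read 8473 FPKM with overexpression, 5948 FPKM with RNAi and 11685 FPKM in control. It begins 415 bases beyond the end of Glyma.10G206900, the highest member, and rested on 184 computed fragments in overexpression roots, 92 in RNAi roots and 207 in control roots. Glyma.08G230500 read 7898 FPKM with overexpression, 3977 FPKM with RNAi and 7681 FPKM in control, low with RNAi. Glyma.20G247800 read 7378 FPKM with overexpression, 3209 FPKM with RNAi and 4645 FPKM in control. Glyma.15G041300 read 3718 FPKM with overexpression, 6574 FPKM with RNAi and 4148 FPKM in control, high with RNAi.

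Members were therefore not simply the highest genes of a column. Among all genes with 3 OK flags, 52 members were in the top 150 with overexpression, 53 with RNAi and 63 in control. In the top 300 stood 127 members with overexpression, 111 with RNAi and 149 in control, and the lowest rank of a member was 459 with overexpression, 666 with RNAi and 304 in control.

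Inside the window members still differed between columns. For overexpression minus control the log2 differences had a median of 0.10 and limits of -0.57 and 0.58, and 94 members were above 0 and 56 below. For RNAi minus control the median was 0.13 and the limits -0.58 and 0.57, and 99 were above 0 and 51 below. Over genes with at least 1 FPKM in a column the medians were 0.01 for overexpression and 0.05 for RNAi, and of those genes 52.1% were above 0 for overexpression and 54.2% for RNAi. Over the 286 genes of the members' level, members included, the medians were 0.10 for overexpression and 0.09 for RNAi, close to those of the members. Both comparisons use the same control libraries. These signs depend on how the columns are scaled. With scaling by the median of ratios the members' medians were 0.08 for overexpression and 0.06 for RNAi. With columns scaled to equal computed fragments outside the chromosome 13 stretch, the members' median was 0.02 for overexpression, beside -0.06 over those genes, and 78 members were above 0. For RNAi it was -0.06, beside -0.10, and 66 members were above 0. Relative to the median gene, 94 members were higher for overexpression as deposited and 91 on the scaled columns, and for RNAi 92 and 87.

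**Figure D4:**
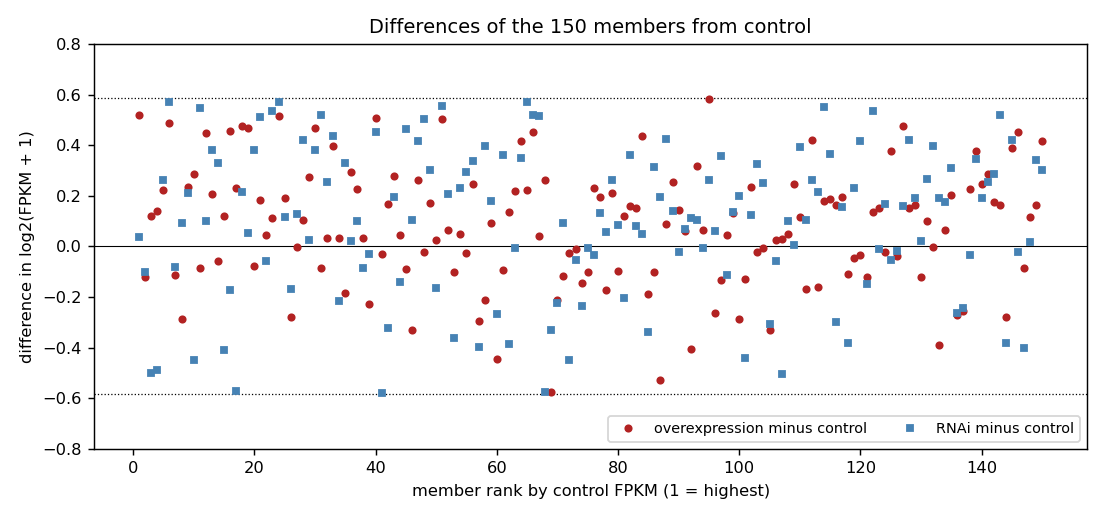
Difference in log2(FPKM + 1) from control (y axis) of each of the 150 members, ordered by rank in control (x axis), for overexpression and for RNAi, with dotted lines at the limits of the window. Medians are 0.10 for overexpression and 0.13 for RNAi, and points fill the window at all ranks.

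Values inside the window were often apart by the authors' bounds. The computed fragments follow from those bounds, so they are no separate measure of depth here. The bounds of overexpression and control did not overlap for 108 of 150 members (72.0%), 74 higher and 34 lower with overexpression. Over all genes entering the rule they were apart for 13.3%, 7.10% higher and 6.19% lower, and over the 286 genes of the members' level, members included, for 78.7%. The bounds of RNAi and control were apart for 116 members (77.3%), 81 higher and 35 lower with RNAi, against 26.5% of all genes, 14.8% higher and 11.7% lower, and 86.7% of genes of that level. The bounds of overexpression and RNAi were apart for 113 members (75.3%), 54 higher and 59 lower with overexpression, against 25.5% of all genes, 11.9% higher and 13.6% lower, and 84.3% of genes of that level. Bounds narrow with level, so the share over all genes is not a measure for genes of this level. For the members a difference under 1.5-fold was thus mostly wider than the authors' bounds, and whether it exceeded the spread between plants was not tested.

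The 2 highest and the 2 lowest members are given for each construct. For overexpression Glyma.14G201700 was highest and Glyma.10G206900, given above, came next. Glyma.14G201700 stood at 401 FPKM (393 to 410) with overexpression, 321 FPKM with RNAi and 268 FPKM (261 to 274) in control. Glyma.13G338300 was lowest, at 213 FPKM (206 to 220) with overexpression, 252 FPKM with RNAi and 318 FPKM (310 to 325) in control. Glyma.15G125300 came next, at 193 FPKM with overexpression, 318 FPKM with RNAi and 278 FPKM in control. In these genes the construct and control bounds were well apart.

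For RNAi, Glyma.03G171100 and Glyma.17G140400 were highest, both at a log2 difference of 0.57 from control. Glyma.03G171100 read 384 FPKM with overexpression, 488 FPKM with RNAi and 329 FPKM in control. Glyma.17G140400 read 984 FPKM with overexpression, 1021 FPKM with RNAi and 687 FPKM in control. Glyma.19G263100 and Glyma.12G024700 were lowest, at -0.58. Glyma.19G263100 read 438 FPKM with overexpression, 299 FPKM with RNAi and 448 FPKM in control, so that RNAi alone was low.

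Between the constructs the rule set no direct limit, and 10 members lay further apart than the window allows from control, none of them by 1 or more. The difference of overexpression minus RNAi had a median of -0.02 and ran from -0.72, at Glyma.15G125300, to 0.84, at Glyma.12G024700. Glyma.12G024700 read 381 FPKM with overexpression (371 to 391), 213 FPKM with RNAi (205 to 220) and 318 FPKM in control (309 to 326). A member can thus sit within the window of control on both sides and still differ between the 2 constructs by more than 1.5-fold.

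The distance between the highest and the lowest of the 3 columns had a median of 0.364 on the log2 scale and ran from 0.0375 to 0.839. It was under 0.1 for 6 members and under 0.2 for 30. The members with the smallest distance, named after their values were seen, were Glyma.08G181300 and Glyma.03G131600. Glyma.08G181300 (chromosome 8, 14561337 to 14562427) read 226 FPKM with overexpression (215 to 236), 229 FPKM with RNAi (219 to 238) and 232 FPKM in control (222 to 241). Glyma.03G131600 (chromosome 3, 34657710 to 34658702) read 305 FPKM with overexpression (296 to 315), 296 FPKM with RNAi (287 to 305) and 307 FPKM in control (299 to 316). Their bounds overlapped in all 3 columns, which held for 11 members in all. Of those 11, 4 had bounds more than 10% from the value in control, so that overlap there goes with a wide interval.

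Gene span, the distance from start to end of the listed locus with introns included, was not itself used by the rule. The FPKM that ranks genes divides by transcript length, however, so span is not independent of the rule. The members' median span was 2233 bases, from 168 to 11461, with quartiles at 1248 and 3343. Genes of the same control level outside the window had a median of 1939 bases, all genes entering the rule 3125 bases, and genes with at least 1 FPKM in a column 3835 bases. Spans over 5000 bases belonged to 12 members, or 8.0%, to 8.82% of the genes outside the window, to 27.4% of all genes and to 34.4% of genes with at least 1 FPKM. The members, ranked on FPKM, were thus shorter than genes at large, as were the other genes of their level. Ranked on computed fragments instead, the members had a median span of 2903 bases.

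Very short loci were fewer among members than among the genes of that level that failed the window. Under 500 bases lay 3 of 150 members (2.0%) and 14 of 136 genes outside the window (10.3%), against 4.67% of all genes and 1.89% of genes with at least 1 FPKM. The window takes no account of the bounds, and few computed fragments are another way of stating wide bounds. Whether this thinned short loci among the members was not tested. Under 1000 bases lay 24 members (16.0%), 12 of which were among the 50 highest. The median span was 1969 bases for the 50 highest members, 2339 for the next 50 and 2347 for the last 50. Across the 150 members control FPKM and span had a Spearman's rho of -0.16, and computed fragments and span one of 0.23, which describe genes that share the same libraries.

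The shortest members, Glyma.12G147800 and Glyma.20G183800, paired a high FPKM with few fragments. Glyma.12G147800 (chromosome 12, 20582837 to 20583005, 168 bases) was rank 11 in control. It read 952 FPKM with overexpression (712 to 1192), 1474 FPKM with RNAi (1126 to 1821) and 1009 FPKM in control (758 to 1260), on 63 computed fragments with overexpression, 72 with RNAi and 65 in control. Its 3 bounds overlapped although the constructs differed by 0.63 on the log2 scale. Glyma.20G183800 (chromosome 20, 42184140 to 42184374, 234 bases) read 389 FPKM with overexpression, 296 FPKM with RNAi and 287 FPKM in control, on 264 computed fragments with overexpression, 186 with RNAi and 233 in control. By computed fragments these genes ranked 24945 and 13715 in control among all genes with 3 OK flags. Their control FPKM and computed fragments imply a length of 4.2 bases for Glyma.12G147800 and 53.3 bases for Glyma.20G183800. Both lengths are far below the spans, so on this reading of the bounds the high FPKM goes with a very short length divisor. Short span alone did not mark this. The implied control length was 36.3 bases for Glyma.18G203200, with a span of 2358, and 65.9 bases for Glyma.08G291500, with a span of 855. It was 340 bases for Glyma.09G184500, with a span of 384. The cause was not tested.

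In all, 6 members had bounds more than 10% from the value, the same number in each column. Beside the 2 short genes these were Glyma.05G206800, Glyma.08G291500, Glyma.11G203700 and Glyma.18G203200. Glyma.05G206800 read 557 FPKM with overexpression (0 to 1673), 603 FPKM with RNAi (0 to 1835) and 677 FPKM in control (0 to 2061), so the authors' bounds left its level undetermined. Its listed span of 3945 bases is that of a locus shared with Glyma.05G206900, which read 21.8 FPKM with overexpression, 23.5 FPKM with RNAi and 24.2 FPKM in control. In Glyma.11G203700 the bounds stood 17.6%, 17.4% and 16.2% from the value in overexpression, RNAi and control, and in Glyma.18G203200 18.7%, 16.4% and 17.2%. At the other end, 37 members with overexpression, 35 with RNAi and 40 in control rested on at least 10000 computed fragments.

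**Figure D5:**
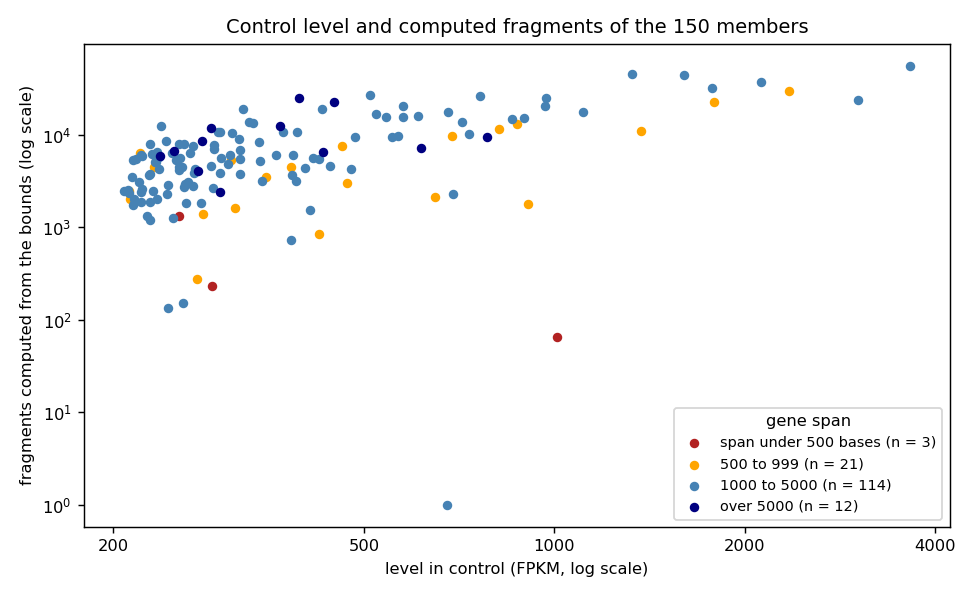
Level in control (x axis, FPKM, log scale) against fragments computed from the bounds (y axis, log scale) for the 150 members, coloured by gene span. Glyma.12G147800, at 1009 FPKM on 65 fragments, and Glyma.05G206800, at 677 FPKM on 1 fragment, lie far below the other members of their level.

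Members whose locus overlaps that of another gene model numbered 9 (6.0%), against 1.47% of the genes outside the window and 7.12% of all genes. The table gives overlapping models 1 common locus, so their listed span can exceed the gene's own, and the division of fragments between them is uncertain. The longest members were of this kind. Glyma.05G057800 was listed at 11461 bases and shares its locus with a model listed at 0 in all columns. Glyma.06G172600 and Glyma.06G172700 share 1 locus of 10122 bases on chromosome 6 (14466165 to 14476287) and are both members. Glyma.06G172600 read 522 FPKM with overexpression, 492 FPKM with RNAi and 430 FPKM in control, and Glyma.06G172700 read 271 FPKM with overexpression, 328 FPKM with RNAi and 250 FPKM in control.

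All members lay on chromosomes, and each of the 20 chromosomes held at least 2. Chromosomes 17 and 8 held 12 each, 4.57 and 3.27 per 1000 genes that entered the rule, and chromosome 20 held 2, or 0.80 per 1000. As a rate, chromosomes 12, 4 and 3 stood above chromosome 8, at 3.72, 3.5 and 3.4 per 1000. Chromosomes 17 and 10 carried the largest shares of level, 12.5% and 11.0% of the members' control FPKM. Position along the chromosome was close to that of other expressed genes. The median member lay 12.4% of the chromosome's gene-bearing length from the nearer end, against 12.7% for genes with at least 1 FPKM and 14.1% for all genes, and 70.7% of members lay in the outer 20% on either side, against 68.7% and 64.7%.

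Members within 50000 bases of each other formed 5 groups. The largest was on chromosome 17 between 11364058 and 11403075, where 4 of 7 successive gene models were members. Glyma.17G139800 read 656 FPKM with overexpression, 631 FPKM with RNAi and 461 FPKM in control. Glyma.17G140000 read 1136 FPKM with overexpression, 949 FPKM with RNAi and 817 FPKM in control. Glyma.17G140200 read 578 FPKM with overexpression, 675 FPKM with RNAi and 565 FPKM in control, and Glyma.17G140400 is given above. Their sum was 3354 FPKM with overexpression, 3276 FPKM with RNAi and 2530 FPKM in control, so that both constructs were above control.

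The 3 gene models in between differed from these. Glyma.17G140300 read 245 FPKM with overexpression, 426 FPKM with RNAi and 211 FPKM in control, above the window with RNAi. Glyma.17G139900 read 47.7 FPKM with overexpression, 12.1 FPKM with RNAi and 78.96 FPKM in control, below the window with both. Glyma.17G140100 stood under 1 FPKM in each column. The 7 models had spans between 788 and 1278 bases. High stable genes, a high gene outside the window and a nearly silent model thus alternated along 39017 bases.

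On chromosome 7 between 3193172 and 3223373, Glyma.07G038700, Glyma.07G038800 and Glyma.07G039100 were members among 5 gene models. Glyma.07G038800, the lowest of them, read 260 FPKM with overexpression, 179 FPKM with RNAi and 254 FPKM in control, and like its neighbours it was low with RNAi, at a log2 difference of -0.50. The 3 genes summed to 5151 FPKM with overexpression, 3349 FPKM with RNAi and 4724 FPKM in control. The 2 models in between stood under 1 FPKM in each column.

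The other groups were pairs. Glyma.14G061100 and Glyma.14G061500 on chromosome 14 summed to 1711 FPKM with overexpression, 1792 FPKM with RNAi and 1841 FPKM in control. Glyma.04G193400 and Glyma.04G193500 on chromosome 4, next to each other with spans of 3050 and 2954 bases, summed to 578 FPKM with overexpression, 647 FPKM with RNAi and 511 FPKM in control. The last pair is the shared locus on chromosome 6. Whether neighbouring members are copies of each other that share fragments was not analysed here.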

How the data were processed

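Soybean hairy root RNA was sequenced in 6 libraries, 2 per group. The authors deposited FPKM values with lower and upper bounds and a flag per gene, 1 value per group, per the file headers. Per the submitters' processing notes TopHat, a splice-aware aligner, was used. No version, quantification tool or strand setting is stated. Gene IDs carry the annotation tag Wm82.a2.v1, coordinates are as deposited, and their first base may be numbered 0 or 1. The RefSeq gene table of Glycine_max_v4.0 held 0 of the IDs.

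Members were found by the rule in the report, with a window of 0.585 on the log2 scale, with pandas 2.3.3 in Python 3.11.15. Differences are of log2(FPKM + 1), which understates the change of low genes. Fragments were computed as the square of 2 times the value over the distance to its upper bound, and came to 14672515, 15362378 and 15236398 for overexpression, RNAi and control. One FPKM stood for 0.824 times as many of these fragments with overexpression as in control and 0.884 times with RNAi. If the bounds are read in this way, the columns were not scaled to equal fragment totals. The calculation and the choice of members were run on simulated data whose bounds were built by the same formula. This checks the code alone, and the reading of the deposited bounds was not tested.

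Members and settings were chosen with earlier results of these data known. Genes are named by rank, largest difference, span and neighbourhood. The per-library fit, gene lists and homeolog search that had been planned need values per library or annotated IDs and were not run.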

Additional observations from a re-analysis of the deposited data

How the results depend on the processing

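Each group is a single pooled column, so leaving out a library was not an option, and the planned homeolog search was not run. No paired analysis was possible because the columns carry no replicate number. The 6 members with bounds over 10% from the value also have few computed fragments, which follow from those bounds. Shares follow for overexpression, RNAi and control, and as reported they were 9.52%, 10.3% and 10.7% of FPKM and 7.98%, 7.78% and 8.37% of computed fragments. The last 5 settings were chosen after seeing the data. Keeping the chromosome 13 region in the rule, or filtering the background at 1 FPKM, left all 150 members the same. With a window of 0.3, the shares were 5.34%, 6.02% and 6.46% of FPKM and 4.69%, 4.78% and 5.34% of fragments, with 69 members shared. With a window of 1, they were 16.0%, 15.1% and 17.3% of FPKM and 12.8%, 10.6% and 12.03% of fragments, with 98 members shared. With log2(FPKM + 0.1), they were 9.49%, 10.3% and 10.65% of FPKM and 7.94%, 7.75% and 8.35% of fragments, with 149 members shared. For the 100 highest, they were 8.03%, 8.59% and 8.94% of FPKM and 6.75%, 6.51% and 7.04% of fragments. For the 300 highest, they were 12.7%, 14.0% and 14.4% of FPKM and 10.8%, 10.8% and 11.55% of fragments. With columns scaled by the median of ratios, they were 9.68%, 10.7% and 10.8% of FPKM and 8.15%, 8.19% and 8.47% of fragments, with 140 members shared. Ranked on the mean of log levels, they were 9.57%, 10.3% and 10.6% of FPKM and 8.09%, 7.89% and 8.41% of fragments, with 144 members shared. Without shared loci, they were 9.32%, 9.997% and 10.4% of FPKM and 7.97%, 7.73% and 8.345% of fragments, with 141 members shared. Ranked on computed fragments, they were 8.31%, 8.63% and 9.10% of FPKM and 9.13%, 8.98% and 9.68% of fragments, with 91 members shared. Without bounds over 10%, they were 9.35%, 10.02% and 10.4% of FPKM and 8.12%, 7.91% and 8.52% of fragments, with 144 members shared. With columns scaled to equal fragments, they were 9.83%, 11.7% and 10.9% of FPKM and 8.16%, 8.505% and 8.31% of fragments, with 129 members shared. With the chromosome 13 region out of the columns, they were 11.8%, 10.6% and 10.9% of FPKM and 8.90%, 7.90% and 8.47% of fragments. With Glyma.04G231200 out of the columns, they were 9.52%, 10.6% and 11.05% of FPKM and 7.98%, 7.78% and 8.37% of fragments. Bounds were apart between overexpression and control for 70 members with a window of 0.3, and for 189 with 300 genes. With 300 genes they were apart for 239 between RNAi and control, and for 231 when the constructs were set against each other. These are counts and not shares, and they follow the size of the set. Counts for 300 or 100 genes are therefore no measure of change from those for 150. Of 45 such recounts, those for 300 and 100 genes included, 41 stayed within 1.5 times. These 41 include the settings that kept exactly the same 150 members, where the counts could not change. The median span was 2903 bases ranked on computed fragments and lay between 2088 and 2386 under the other settings. The stable share of genes of the members' level was 24.1% with a window of 0.3 and 77.97% with a window of 1, beside 52.4% as reported. The overexpression share of FPKM was the lowest of the 3 columns under each setting but the window of 1, where RNAi was lowest, and the columns without the chromosome 13 region, where it was the highest. Changes of the member set or the denominator follow from the settings by construction. The cause of the rest was not tested.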
